A study of Mus musculus with 12 samples.

Results

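The genes described here are 9 leukocyte integrins and adhesion molecules, Icam1, Vcam1, Itgal, Itgam, Itgax, Itgb2, Itga4, Cd44 and Selplg. They were chosen by symbol from the 38739 symbols of the expression table, and all 9 were listed and passed the filter on low values. The samples were bone marrow-derived macrophages (BMDMs) of WT mice and of cGAS-/- mice, either untreated (UT, media control) or stimulated with LPS, the bacterial lipopolysaccharide that Toll-like receptor 4 senses. Each genotype was sampled in both conditions, which gave 4 groups of 3 samples named after genotype and condition, such as WT UT or cGAS-/- LPS. The mice were on a C57BL/6J background, and by the methods they were male and 8 weeks old. The methods also state that WT mice were bought from Nomura Siam in Thailand, while cGAS-/- mice came from Aarhus University in Denmark. Genotype and source of the mice therefore cannot be told apart. The knockout is carried by every cell of the animal, and no group had cGAS put back. The dose and time of LPS are 150 ng/mL and 24 h in the methods but 100 ng/mL and 1 h in the sample labels, and the sources do not settle which applies to these RNAs. The labels' extraction text names neutrophils although the samples are labelled macrophage. A legend of the study calls the 3 samples technical replicates, so the p-values below measure only the spread between these samples and not between mice.

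Adhesion molecules let circulating myeloid cells stop on the vessel wall, crawl and leave the blood, and let tissue macrophages hold on to other cells and to matrix. An integrin is a pair of an alpha and a beta chain. The beta 2 chain Itgb2 (CD18) pairs with Itgal (CD11a) as LFA-1, with Itgam (CD11b) as Mac-1 or complement receptor 3, and with Itgax (CD11c) as complement receptor 4. Itga4 (CD49d) pairs with beta 1 as VLA-4. Icam1 is the immunoglobulin-type ligand of LFA-1 and Mac-1, Vcam1 is the ligand of VLA-4, Cd44 binds hyaluronan, and Selplg (PSGL-1) is the sialomucin that selectins hold during rolling. Icam1 and Vcam1 are textbook targets of NF-kappaB, and PU.1 is the myeloid factor known for driving Itgam.

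The values are TPM, an abundance relative to transcript length and to the library, made by the authors with Kallisto and averaged over the transcripts of a symbol, a unit inferred from the values themselves. Since the number of transcripts averaged differs between genes and could not be fixed for most members, levels were not compared between genes. By GENCODE M39 on GRCm39, 3 of the 4 alpha chains lie on the plus strand of chromosome 7, Itgal at 126895432 to 126934320, Itgam at 127661808 to 127717753 and Itgax at 127728668 to 127749829. Itgam and Itgax are 10.9 kb apart, and Itgal lies 727 kb before Itgam. Icam1 is on chromosome 9 (20926672 to 20940113, plus strand), Itgb2 on chromosome 10 (77366086 to 77401542, plus strand) and Itga4 on chromosome 2 (79085660 to 79163467, plus strand). Vcam1 is on chromosome 3 (115903598 to 115923355), Cd44 on chromosome 2 (102641486 to 102732010) and Selplg on chromosome 5 (113956597 to 113970705), all on the minus strand. All 9 are protein-coding genes. Itgam overlaps the protein-coding model Gm49368 on the same strand, and Itga4 overlaps Cerkl on the other strand, so the reads of Itgam in particular may be split between gene models. The kit kept the strand, and whether the quantification used it is not given in the sources used here.

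The promoters of Icam1, Itgam and Itgax are shown because these genes went in different directions with LPS in cGAS-/- cells. They are RefSeq sequences of the 250 bases before the annotated start, on GRCm38.p6, an older build than that of the gene positions above, and all 3 are read on the plus strand. A window of 300 bases (250 before and 50 from the start on) was searched on both strands for GGNNNTTCC, an NF-kappaB type motif, and for GAGGAA, a PU.1 type motif. Capitals mark GGNNNTTCC in Icam1 (chr9:21015690-21015939) and GAGGAA in Itgam (chr7:128062390-128062639), and Itgax (chr7:128129300-128129549) held neither.
Icam1: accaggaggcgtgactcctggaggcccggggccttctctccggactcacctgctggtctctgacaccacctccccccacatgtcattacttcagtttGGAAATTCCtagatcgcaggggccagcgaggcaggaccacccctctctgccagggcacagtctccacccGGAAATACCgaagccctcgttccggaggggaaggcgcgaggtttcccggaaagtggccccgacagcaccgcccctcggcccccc
Itgam: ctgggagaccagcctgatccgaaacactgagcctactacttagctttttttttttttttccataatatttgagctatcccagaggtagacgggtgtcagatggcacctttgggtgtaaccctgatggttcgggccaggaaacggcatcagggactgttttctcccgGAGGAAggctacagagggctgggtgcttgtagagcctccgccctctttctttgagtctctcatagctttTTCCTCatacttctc
Itgax: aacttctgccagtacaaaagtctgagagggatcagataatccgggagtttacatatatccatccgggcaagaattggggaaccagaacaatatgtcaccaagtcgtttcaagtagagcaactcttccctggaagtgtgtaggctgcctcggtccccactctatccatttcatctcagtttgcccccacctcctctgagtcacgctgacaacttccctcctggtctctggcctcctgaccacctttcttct
In Icam1, GGAAATTCC begins 153 bases before the start and matches on both strands, and GGAAATACC begins 84 bases before the start and matches on the minus strand. In Itgam, GAGGAA begins 84 bases before the start, its reverse complement TTCCTC begins 15 bases before it, and another TTCCTC lies beyond the start. Of 32851 promoter windows of the same length, 18.5% held GGNNNTTCC and 28.3% held GAGGAA, so a match in a single gene is common. Cd44, read in the direction of the gene, held TTCCTC, the reverse complement of GAGGAA, at 243 and 220 bases before its start. Itga4 held neither motif. The table of promoters gave 5 of the 9 members, without Vcam1, Itgal, Itgb2 and Selplg.

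Before the results, the samples themselves need 1 caution. The WT LPS samples differed far more among themselves than those of any other group. Column totals were 447189 to 503156 for 11 samples, but 709802 for WT LPS replicate 3, where the ferritin pseudogene Fth-ps3 took 31.7% of the total against 6.25% to 17.7% elsewhere. Genes above 0 numbered 12787 in WT LPS replicate 1 and 12261 in WT LPS replicate 3, against 15378 to 17573 in the other samples. Cgas, the targeted gene, lay at 1.19 to 3.25 TPM in WT and at 0.0703 to 0.291 TPM in cGAS-/- samples, so no sample went against its genotype label. The macrophage markers summed to 30450 to 41290 TPM per sample, and the 16 of 19 that the table lists all passed the filter. Lyz2 alone held 15700 to 33430 TPM of this sum and was higher in cGAS-/- than in WT with LPS, by a log2 fold change of 0.80 (adjusted p = 0.028), a call lost under TMM factors (0.60, adjusted p = 0.262). Of the others, Mrc1 was lower in cGAS-/- in UT cells (-1.68, adjusted p = 0.0128; -1.60 and 0.0572 under TMM factors) and with LPS (-1.99, adjusted p = 0.00494), and Ctss (-0.77, adjusted p = 0.017) and C1qa (-1.47, adjusted p = 0.045) were lower with LPS. Adgre1, Csf1r and Cd14 were not analysed here. All 13 listed T and NK cell markers were below 1 TPM in all 12 samples.

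**Figure D1:**
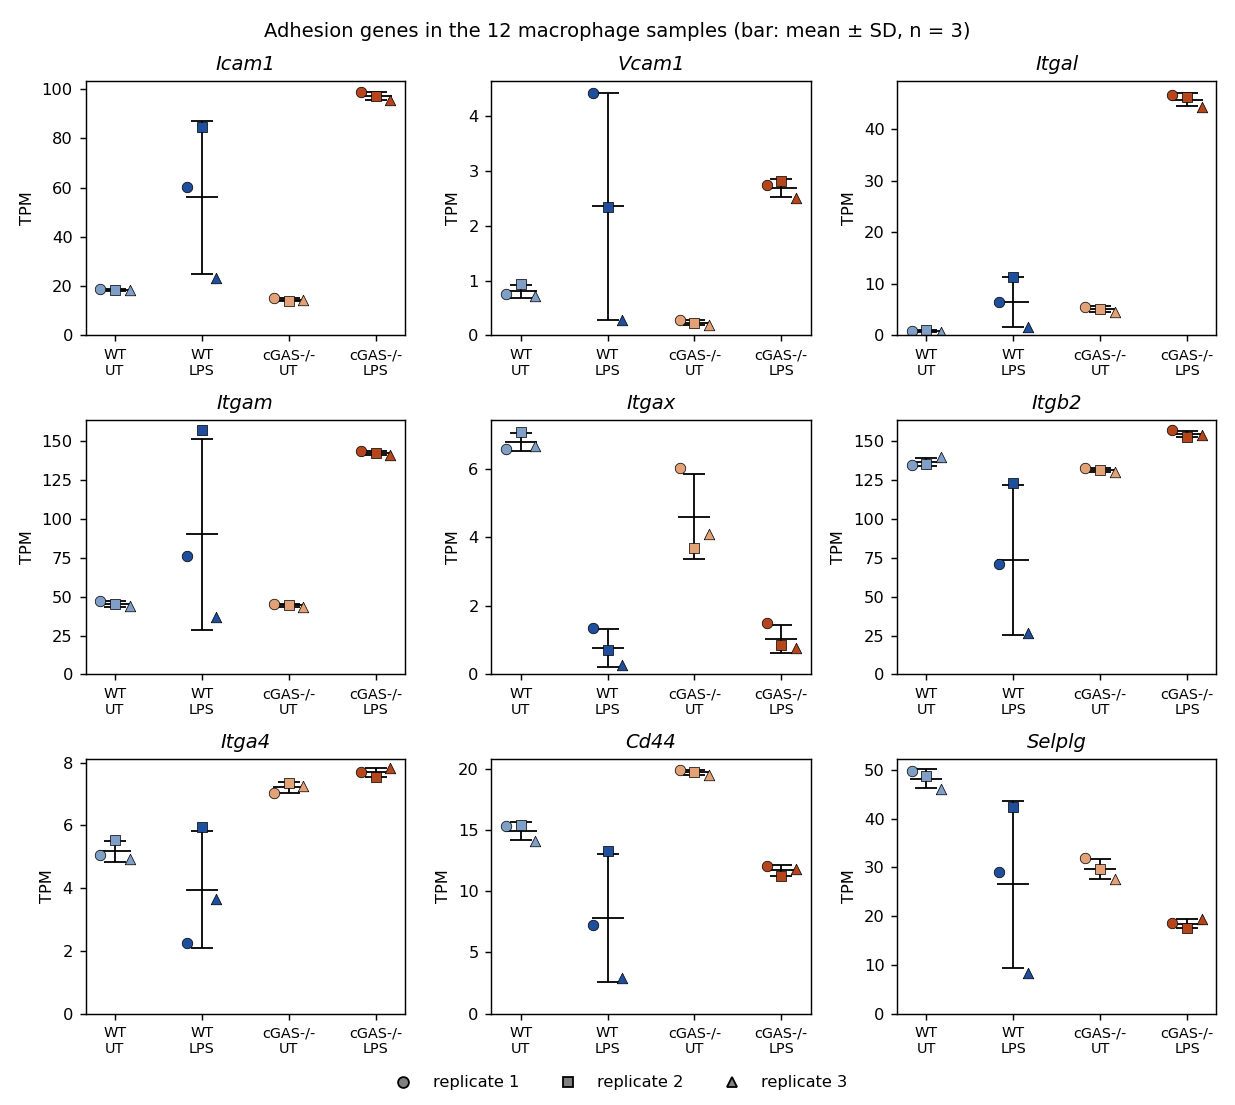
TPM of the 9 genes in each of the 12 samples (y axis, linear, from 0), by group (x axis), with the mean and SD of 3 samples as bars and the replicate number as the symbol. The 3 cGAS-/- LPS samples lie close together in most panels, for example at 95.6 to 98.9 TPM for Icam1, while the WT LPS samples spread from 23.1 to 84.4 TPM.

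LPS was first set against UT within each genotype, the comparison that asks how stimulation changed these genes. Fold changes are log2 values of TPM + 1 with their standard error, which understates the change of genes near or below 1 TPM, and a gene passed with an adjusted p under 0.05 in limma over 9881 genes. With LPS, Icam1 and Itgal rose and Itgax fell in both genotypes, and Itgam rose in cGAS-/- cells. In WT cells 3 of 9 members passed (2 higher, 1 lower), where 30.8% of all genes tested passed, 4.8% of them higher and 26% lower. In cGAS-/- cells 5 of 9 passed (4 higher, 1 lower), against 15.8% of all genes (5.54% higher and 10.3% lower). Of these 5, Vcam1 entered the test only through LPS samples and is given below as a description. Itgax, also among the 3 in WT, reached 1 TPM in all 6 UT samples but in only 2 LPS samples. It was thus tested only through UT, the condition where it was high. With no filter on low values, where no gene is left out for being low in a group, 3 of 9 members passed in WT and 4 of 9 in cGAS-/- cells, Vcam1 no longer among them, against 11.3% and 5.79% of all genes. The samples of LPS and UT did not overlap for 6 of 9 members in WT and for 9 of 9 in cGAS-/- cells, against 40.6% and 60.6% of all genes. Past both of the study's thresholds, adjusted p and a log2 fold change beyond 2, were Itgax in WT (1 of 9, against 5.26% of all genes) and Icam1 and Itgal in cGAS-/- cells (2 of 9, against 4.21%).

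The scale of the samples matters here. Over all genes, the log2 fold changes with LPS had a median of -0.55 in WT and -0.22 in cGAS-/- cells, so a value of 0 is not the middle of the genes. Scaling by TMM factors, which equalise the bulk of genes between samples, moved these medians to -0.20 and -0.024. It also turned the split of all calls in WT from 474 higher and 2573 lower to 744 higher and 1456 lower, and in cGAS-/- cells from 547 higher and 1019 lower to 752 higher and 791 lower. For the members, the values under TMM are given beside the deposited scale where they change a call or a direction.

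Icam1, the endothelial and leukocyte ligand, was the ligand with the clearer rise. It lay at 18.8, 18.3 and 18.4 TPM in WT UT and at 60.3, 84.4 and 23.1 TPM in WT LPS, so all WT LPS samples were above all WT UT samples and replicate 3 was only just above them. It lay at 15.2, 13.8 and 14.5 TPM in cGAS-/- UT and at 98.9, 97.0 and 95.6 TPM in cGAS-/- LPS. The groups without and with LPS were thus far apart in cGAS-/- cells, and every cGAS-/- LPS sample was above every WT LPS sample. Icam1 rose by a log2 fold change of 1.37 ± 0.380 (SE) in WT (adjusted p = 0.0207, higher in 3 of 3 samples) and 2.66 ± 0.380 in cGAS-/- cells (adjusted p = 6.09e-04, higher in 3 of 3 samples). The call in WT was lost when any WT UT sample was left out (adjusted p up to 0.0653) and in a fit of the 6 WT samples alone (adjusted p = 0.149), and the value was 1.89 without WT LPS replicate 3.

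Vcam1, the VLA-4 ligand, was near the filter of 1 TPM and reached it in 5 LPS samples and in no UT sample, so it was tested only through the condition in which it was high. Its values were 0.749, 0.943 and 0.725 TPM in WT UT and 4.42, 2.35 and 0.281 TPM in WT LPS. WT LPS replicate 3 was the lowest of these 6 samples and the other WT LPS samples were the highest, so the groups overlapped (log2 fold change 0.66 ± 0.396, adjusted p = 0.21). In cGAS-/- cells Vcam1 went from 0.276, 0.222 and 0.187 TPM to 2.74, 2.82 and 2.50 TPM, with no overlap. The log2 fold change there was 1.58 ± 0.396, which missed the threshold with no filter on low values (adjusted p = 0.0595), so Vcam1 is not counted here as a gene that rose.

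Itgal, the alpha chain of LFA-1, rose in both genotypes from unequal starting levels. It was 0.802, 1.09 and 0.684 TPM in WT UT and 6.43, 11.3 and 1.58 TPM in WT LPS. All WT LPS samples were above the WT UT samples, and the log2 fold change was 1.74 ± 0.439 (adjusted p = 0.0134). Leaving out WT LPS replicate 3 gave 2.37, leaving out replicate 2 gave 1.24, and it did not pass in a fit of the 6 WT samples alone (adjusted p = 0.0856). It was 5.56, 5.18 and 4.48 TPM in cGAS-/- UT and 46.6, 46.3 and 44.2 TPM in cGAS-/- LPS. The rise in cGAS-/- cells was 2.95 ± 0.439 (adjusted p = 8.18e-04), rank 114 from the top of 9881 genes.

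Itgam, the alpha chain of Mac-1, passed in cGAS-/- cells. It was 45.4, 44.8 and 43.3 TPM in cGAS-/- UT and 144, 142 and 141 TPM in cGAS-/- LPS, a rise of 1.66 ± 0.406 (adjusted p = 0.0165) that missed the threshold without any 1 of those 6 samples (adjusted p up to 0.0592). In WT it was 47.3, 45.2 and 43.9 TPM untreated and 76.2, 157 and 37.1 TPM with LPS. The third WT LPS sample lay below all WT UT samples and the other two above, and the change of 0.74 ± 0.406 did not pass (adjusted p = 0.176). It passed under TMM factors (1.28, adjusted p = 0.0059) and without WT LPS replicate 3 (1.25, adjusted p = 0.00228). Leaving out WT LPS replicate 2 instead brought the change down to 0.22.

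Itgax, the alpha chain of complement receptor 4 and a marker used for dendritic cells and some macrophages, went the other way. It was 6.57, 7.07 and 6.67 TPM in WT UT and 1.35, 0.713 and 0.265 TPM in WT LPS. In cGAS-/- cells it was 6.02, 3.70 and 4.09 TPM untreated and 1.5, 0.852 and 0.761 TPM with LPS. Every LPS sample was below every UT sample of either genotype. The fall was 2.17 on the log2 scale in WT (log2 fold change -2.17 ± 0.256, adjusted p = 1.51e-04) and 1.46 in cGAS-/- cells (log2 fold change -1.46 ± 0.256, adjusted p = 0.00243), and both calls held with no filter on low values (adjusted p = 6.58e-04 and 0.00785). Itgax and Itgam, neighbours 10.9 kb apart, therefore took opposite directions in cGAS-/- cells.

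Itgb2, the beta chain that these alpha chains share, did not pass in either genotype. It was 135, 135 and 140 TPM in WT UT and 70.7, 123 and 26.8 TPM in WT LPS (log2 fold change -1.13 ± 0.423, adjusted p = 0.0621). All 3 WT LPS samples were lower, and relative to the median of all genes the change was -0.58. Leaving out WT LPS replicate 3 gave -0.55 (adjusted p = 0.0376), and leaving out replicate 2 gave -1.62 (adjusted p = 0.00282). In cGAS-/- cells it was 132, 131 and 130 TPM untreated and 157, 153 and 154 TPM with LPS. The cGAS-/- LPS samples were all higher, by a log2 fold change of 0.23 ± 0.423 (adjusted p = 0.802).

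Itga4, Cd44 and Selplg did not pass in either genotype. Cd44 was 15.3, 15.4 and 14.1 TPM in WT UT and 7.24, 13.3 and 2.89 TPM in WT LPS (-1.05 ± 0.373, adjusted p = 0.0532), and it was 19.9, 19.8 and 19.5 TPM in cGAS-/- UT and 12.1, 11.2 and 11.8 TPM in cGAS-/- LPS (-0.70 ± 0.373, adjusted p = 0.268). Its LPS samples were all lower than the UT samples of the same genotype, by -0.50 and -0.48 relative to the median of all genes. Selplg was 49.8, 48.7 and 46.1 TPM in WT UT and 29.0, 42.3 and 8.26 TPM in WT LPS (-1.10 ± 0.448, adjusted p = 0.081), and it was 31.8, 29.6 and 27.6 TPM in cGAS-/- UT and 18.5, 17.5 and 19.4 TPM in cGAS-/- LPS (-0.66 ± 0.448, adjusted p = 0.409). It too was lower in every LPS sample of a genotype. Without WT LPS replicate 3 the changes in WT were -0.55 for Cd44 (adjusted p = 0.0434) and -0.45 for Selplg (adjusted p = 0.0378), and without WT LPS replicate 2 they were -1.49 (adjusted p = 0.00158) and -1.56 (adjusted p = 0.00852). Itga4 was 5.05, 5.54 and 4.93 TPM in WT UT and 2.24, 5.94 and 3.67 TPM in WT LPS, groups that overlapped (-0.39 ± 0.251, adjusted p = 0.244), and the sign turned under TMM factors (0.057). Without WT LPS replicate 2 Itga4 passed as lower in WT (-0.67, adjusted p = 0.00844). In cGAS-/- cells Itga4 was 7.02, 7.34 and 7.26 TPM untreated and 7.69, 7.55 and 7.82 TPM with LPS (0.082 ± 0.251, adjusted p = 0.896).

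**Figure D2:**
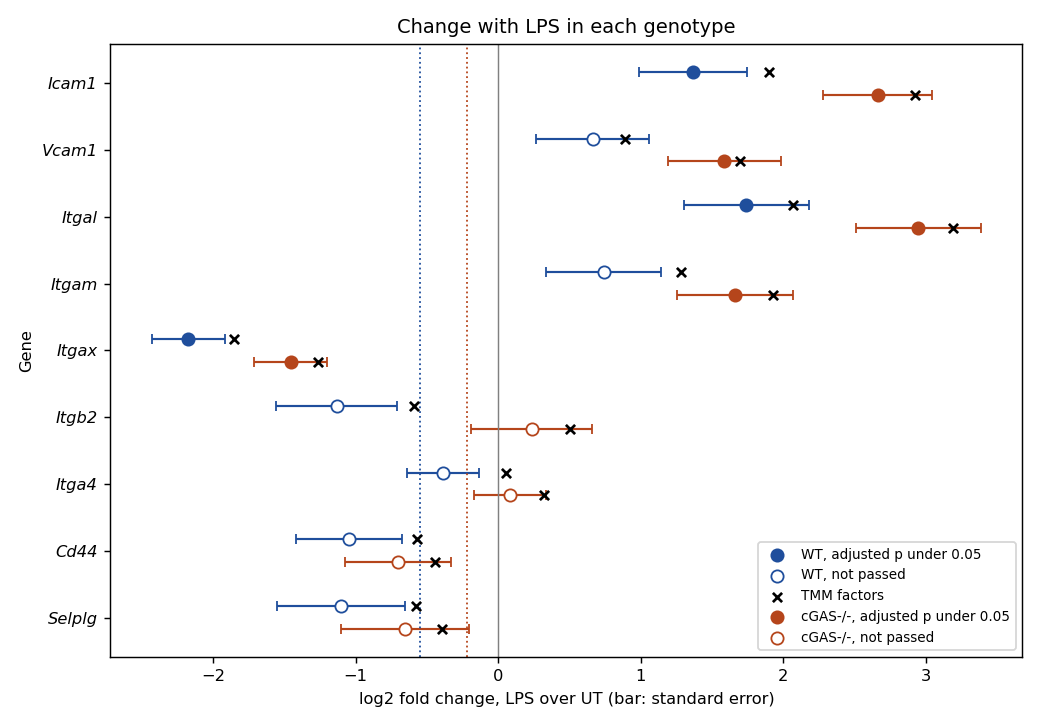
Log2 fold change of LPS over UT (x axis, TPM + 1) for each gene (y axis), in WT (blue) and cGAS-/- (red) cells, with the standard error as a bar, filled circles for an adjusted p under 0.05, crosses for the value under TMM factors and dotted lines for the median of all genes, at -0.55 and -0.22. Icam1 and Itgal are filled on the right and Itgax on the left in both genotypes.

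Whether LPS acted unequally in the genotypes was then tested with an interaction term (the change in cGAS-/- minus that in WT). It was above 0 for 9 of 9 members (0.34 to 1.37), but the median of all genes was 0.32 and 0 of 9 members passed in limma, against 1.04% of all genes. At an unadjusted p under 0.05 there were 2, Icam1 (1.29 ± 0.538, adjusted p = 0.401) and Itgb2 (1.37 ± 0.598, adjusted p = 0.432). The 5 calls in cGAS-/- cells against 3 in WT are therefore not shown to differ. Without WT LPS replicate 2, the highest WT LPS sample for most members, 4 passed (Icam1, Itgal, Itgam and Itgb2), but the share of all genes called rose to 16.3% in that fit. Without WT LPS replicate 3 only 1 passed, against 5.57% of all genes, and Cd44 (-0.15) and Selplg (-0.21) turned below 0.

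The genotypes were next compared within each condition. Since the mice of each genotype had their own source, a difference here cannot be assigned to the loss of cGAS rather than to the source. In UT cells 0 of 9 members passed in limma (1 at an unadjusted p under 0.05), against 1.83% of all genes. Itgal was the member with the largest difference. Its 3 cGAS-/- UT samples (4.48 to 5.56 TPM) were all above its 3 WT UT samples (0.684 to 1.09 TPM), a ratio of means of 5.90. The log2 fold change was 1.71 ± 0.439 (adjusted p = 0.1), rank 24 from the top of 9881 genes. It passed under TMM factors (adjusted p = 0.0366), in a fit of the 6 UT samples alone (adjusted p = 5.46e-04) and without WT LPS replicate 2 (adjusted p = 0.0217). The WT LPS samples are not part of this comparison, but in the fit over 12 samples their spread enters the error.

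The other 8 differed less in UT cells. Selplg was lower in every cGAS-/- UT sample (27.6 to 31.8 TPM against 46.1 to 49.8 TPM in WT UT, log2 fold change -0.68 ± 0.448, adjusted p = 1). Vcam1 was also lower in every cGAS-/- UT sample (0.187 to 0.276 TPM against 0.725 to 0.943 TPM, -0.55 ± 0.396, adjusted p = 1), as were Icam1 (-0.33), Itgax (-0.49) and Itgb2 (-0.058). Itga4 (0.41) and Cd44 (0.38) were higher in every cGAS-/- UT sample. Itgam (-0.031) overlapped, and the signs of Itgam and Itgb2 turned under TMM factors (0.050 and 0.024). The samples of the genotypes did not overlap for 8 of 9 members, against 33% of all genes.

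With LPS, Itgal was higher in cGAS-/- cells and was the 1 of 9 members that passed, against 2.59% of all genes (1.53% higher and 1.06% lower). The 3 cGAS-/- LPS samples (44.2 to 46.6 TPM) were all above the 3 WT LPS samples (1.58 to 11.3 TPM), a ratio of means of 7.09. The log2 fold change was 2.92 ± 0.439 (adjusted p = 0.00533, higher in 3 of 3 samples), past both thresholds, as 0.739% of all genes were, and rank 24 of 9881 genes. It was 2.29 without WT LPS replicate 3, 3.42 without WT LPS replicate 2 and 2.81 under TMM factors, and it passed in each. In a fit of the 6 LPS samples alone it did not pass (adjusted p = 0.122). Other leukocytes can be a source of LFA-1 in cell mixtures, and their part in Itgal was not tested. The T and NK cell markers summed to 0.757 to 0.979 TPM in cGAS-/- LPS and to 0.754 to 1.35 TPM in WT LPS. In the same order, neutrophil markers summed to 419 to 467 and 117 to 508 TPM, and B cell markers to 0.411 to 1.45 and 3.19 to 4.55 TPM.

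Of the other members, Itgb2 (1.31 ± 0.423, adjusted p = 0.136), Icam1 (0.97 ± 0.380, adjusted p = 0.199) and Itga4 (0.88 ± 0.251, adjusted p = 0.104) had cGAS-/- LPS samples that were all above the WT LPS samples. The number of members without overlap was 4 of 9, all higher in cGAS-/- cells, against 18.7% of all genes (13.8% higher). The median of all genes was itself 0.27 in this comparison. Itgam (0.89, adjusted p = 0.248) overlapped because of WT LPS replicate 2, at 157 TPM. Without that sample 6 members passed, Icam1, Itgal, Itgam, Itga4, Itgb2 and Cd44, and without WT LPS replicate 3 there were 3, Itgal and Itgb2 as higher and Selplg as lower. The share of all genes called was 33.8% in the former fit and 9.85% in the latter. Between these fits, without replicate 3 and without replicate 2, Icam1 went from 0.44 to 1.35, Itgb2 from 0.72 to 1.80, Itgam from 0.38 to 1.41 and Cd44 from 0.23 to 1.17, so both the sizes and the count depend on which WT LPS samples are kept. Cd44 (0.72), Vcam1 (0.37) and Itgax (0.23) had overlapping groups, and Selplg (-0.24) was the 1 member with a lower value in cGAS-/- cells. For Selplg, leaving out WT LPS replicate 3 gave -0.89 (adjusted p = 0.00517), and leaving out replicate 2 gave 0.22. Vcam1 turned to -0.21 without WT LPS replicate 3, and Itgax to -0.054 with quantile normalization.

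**Figure D3:**
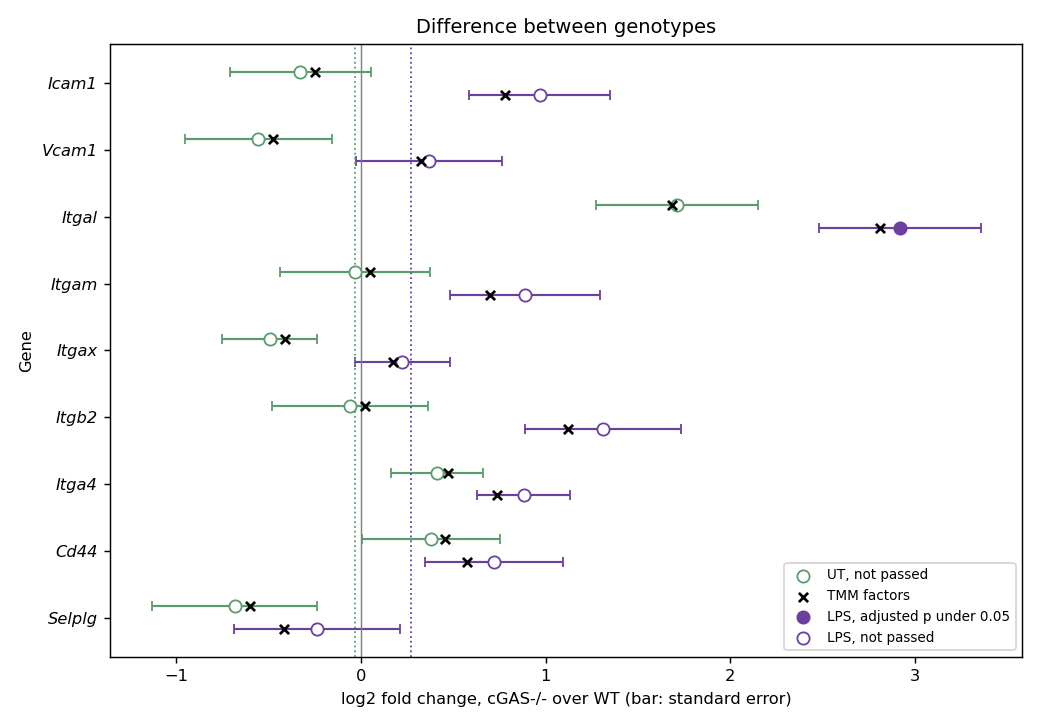
Log2 fold change of cGAS-/- over WT (x axis, TPM + 1) for each gene (y axis), in UT (green) and LPS (purple) cells, with the standard error as a bar, a filled circle for an adjusted p under 0.05, crosses for the value under TMM factors and dotted lines for the median of all genes. Itgal with LPS, at 2.92, is the 1 filled circle, and Itgal in UT cells, at 1.71, is the next to the right.

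Because the 3 alpha chains share 1 beta chain, each was also expressed as a percent of Itgb2 TPM in the same sample, a ratio in which the scale of a sample cancels. The ratio was added after the values were seen, it is a description with no test, and since the unit differs between genes only its change across samples can be read. Itgal was 0.631% ± 0.162 (SD, n = 3) of Itgb2 in WT UT, 8.08% ± 1.90 in WT LPS, 3.87% ± 0.378 in cGAS-/- UT and 29.6% ± 0.812 in cGAS-/- LPS. In this ratio the WT LPS samples were 9.10%, 9.24% and 5.88%, so replicate 3 was still the lowest but nearer to the others than in TPM. No pair of groups overlapped. Itgam was 33.3% ± 1.86 and 33.9% ± 0.496 in WT and cGAS-/- UT and 125% ± 15.5 and 92.4% ± 0.793 in WT and cGAS-/- LPS. Its WT LPS samples (108%, 128% and 138%) were above all cGAS-/- LPS samples, unlike in TPM, where the groups overlapped. The higher percent in WT LPS is not a higher level of Itgam, whose means were 90.2 TPM in WT LPS and 142.7 TPM in cGAS-/- LPS. The Itgb2 means below it were 73.4 and 154.5 TPM. Itgax was 4.96% ± 0.237 and 3.51% ± 0.915 in WT and cGAS-/- UT and 1.16% ± 0.684 and 0.670% ± 0.251 in WT and cGAS-/- LPS, with overlap between genotypes with LPS.

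**Figure D4:**
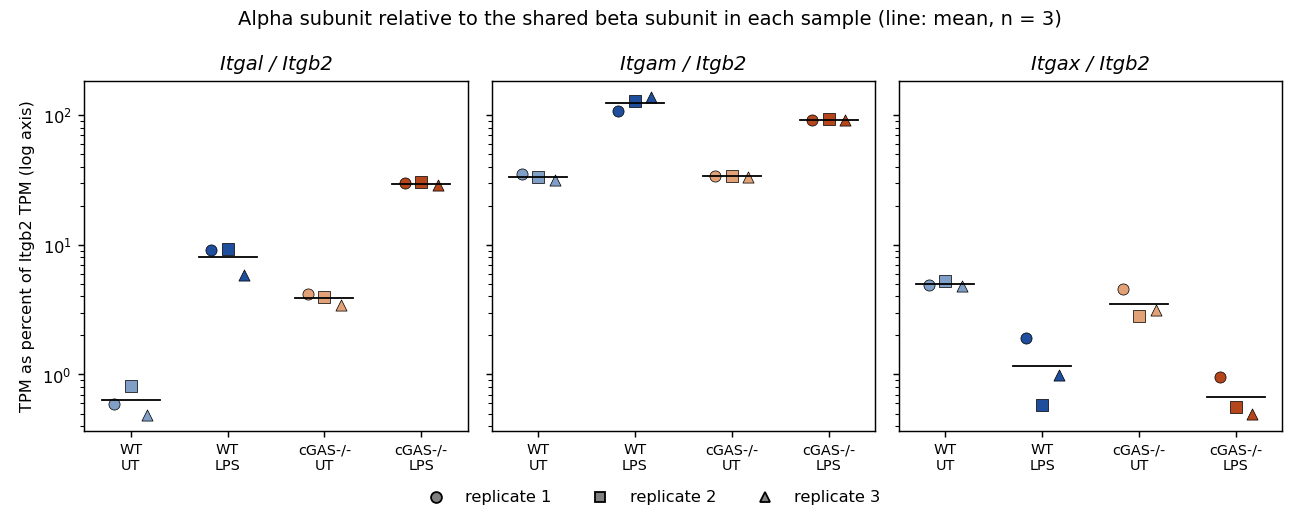
TPM of Itgal, Itgam and Itgax as a percent of Itgb2 TPM in the same sample (y axis, log scale) by group (x axis), with a line at the mean of 3 samples and the replicate number as the symbol. Itgal separates all 4 groups, from 0.631% in WT UT to 29.6% in cGAS-/- LPS, while Itgam separates UT from LPS.

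In TPM, the order of the group means was not shared by the members. Icam1 rose from cGAS-/- UT through WT UT and WT LPS to cGAS-/- LPS, with no overlap between neighbours. Vcam1 and Itgam had the same order, with neighbours that overlapped except for Vcam1 between the UT groups. Itgal rose from WT UT through cGAS-/- UT and WT LPS, which overlapped each other, to cGAS-/- LPS. Itgax rose from WT LPS and cGAS-/- LPS, which overlapped, through cGAS-/- UT to WT UT. Itgb2, Itga4 and Cd44 were lowest in WT LPS, and Selplg was lowest in cGAS-/- LPS.

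Across the 12 samples, which form 4 groups and share the spread of WT LPS, the members fell into like patterns. Pearson's r of log2(TPM + 1) was 0.958 between Icam1 and Itgam, 0.906 between Icam1 and Vcam1 and 0.875 between Itgam and Itgal. It was 0.867 between Itgb2 and Cd44 and 0.747 between Itgax and Selplg, and it was -0.744 between Icam1 and Itgax. Of all genes tested, those most like Icam1 were Ctsc, Tpi1 and N4bp1 (r = 0.994, 0.992 and 0.992), and those most like Itgam were Tnfrsf1b, Nod2 and Pde4b (0.99, 0.989 and 0.989). Those most like Itgal were Cd1d1, Plk3 and Nlrp3 (0.974, 0.966 and 0.959). Those most like Vcam1 were Lrrc25, Fcer1g and Ifitm3 (0.974, 0.973 and 0.966), and those most like Itgax were Igfbp4, Clstn1 and Atg16l2 (0.982, 0.98 and 0.979). Those most like Itgb2 were Cs, Rars and Sec61a1 (0.995, 0.994 and 0.992), and those most like Cd44 were Sh3pxd2b, Ythdf3 and Gab2 (0.994, 0.994 and 0.993). Itga4 was most like Jade2, Amd1 and Tpp2 (0.953, 0.949 and 0.937), and Selplg was most like Akr1a1, Ptms and Ifi30 (0.975, 0.971 and 0.964).

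The other genes of adhesion were taken from lists written by function. Their counts stand beside the shares of all genes that passed with LPS, which in WT were 4.8% upwards and 26% downwards, and in cGAS-/- cells 5.54% and 10.3%. Of the calls with LPS in these lists, 7 of 29 in WT and 6 of 23 in cGAS-/- cells were of genes that reached 1 TPM in fewer than 3 samples outside the condition where they were high, so these could be tested only because they were high there. Those of them named below are described without a test. Of 14 other integrin alpha chains 11 were in the table and 3 were tested. With LPS 0 rose and 2 fell in each genotype, Itga6, a laminin receptor chain, and Itgav, the chain that binds vitronectin with beta 3. Itga6 fell from 11.6 to 1.03 TPM in WT (log2 fold change -2.72 ± 0.263, adjusted p = 3.57e-05) and from 28.8 to 1.81 TPM in cGAS-/- cells (-3.41 ± 0.263, adjusted p = 7.85e-06). The log2 fold changes of Itgav were -1.13 in WT, lost in 5 of 25 alternative settings (under TMM factors -0.68, adjusted p = 0.066), and -1.40 in cGAS-/- cells. In UT cells Itga6 was higher in cGAS-/- (27.7 to 30.0 TPM) than in WT (11.3 to 11.95 TPM) by 1.24 ± 0.263 (adjusted p = 0.037). That call was lost in 13 of 25 alternative settings.

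Of 7 other integrin beta chains 5 were in the table and 3 were tested. Both that passed with LPS, Itgb3 and Itgb8, were of the kind just named. Itgb3, the partner of alpha V, was 1.54 to 1.98 TPM in WT UT, the 1 group in which it reached 1 TPM, and 0.226 to 0.751 TPM in WT LPS, 0.546 to 0.844 TPM in cGAS-/- UT and 0.0536 to 0.107 TPM in cGAS-/- LPS. Itgb8, whose pair with alpha V is known for activating TGF-beta, was 0.0182, 0.0295 and 0 TPM in cGAS-/- UT and 1.99, 2.07 and 2.26 TPM in cGAS-/- LPS. In WT it was at most 0.0395 TPM untreated and 0.135 to 0.829 TPM with LPS. Itgb8 reached 1 TPM only in the 3 cGAS-/- LPS samples, so it passed the filter only through the group where it was high and had to differ there, and its values are given as a description.

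Of 20 other immunoglobulin-type adhesion molecules 15 were in the table and 7 were tested, and 2 passed as higher and 2 as lower with LPS in each genotype (28.6% each way, of only 7 genes). The sialic acid receptor Siglec1 (CD169) rose by a log2 fold change of 2.03 in WT and 3.46 in cGAS-/- cells. Pecam1 (CD31), the other gene with a higher value, was 0.332 to 0.597 TPM in the 6 UT samples and 1.44 to 2.02 TPM in the 6 LPS samples, so it passed the filter only through LPS. Cadm1 fell (log2 fold change -2.11 in WT and -2.85 in cGAS-/- cells), as did the homophilic receptor Cd84 (-1.12 and -1.74). Between the genotypes 0 of 7 passed in limma in either condition. Under TMM factors Siglec1 passed as lower in cGAS-/- in UT cells (-1.06, adjusted p = 0.0351) and Cd84 as lower with LPS (-0.71, adjusted p = 0.0295).

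Of 24 selectins, enzymes that glycosylate PSGL-1 and partners of CD44, 16 were in the table and 11 were tested. In WT cells 1 passed as higher and 2 as lower with LPS (9.09% and 18.2%, below the 26% of all genes for the latter), and in cGAS-/- cells 0 of 11 passed in limma. The fucosyltransferase Fut4 (-1.26) and Rdx (radixin, -1.44), which links CD44 to the cytoskeleton, fell in WT. The call for Rdx was lost in 17 of 25 alternative settings, TMM factors among them (-0.996, adjusted p = 0.0912).

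Of 44 genes of integrin activation and the adhesion complex 29 were in the table and 24 were tested. In WT cells 3 passed as higher (12.5%) and 7 as lower (29.2%, near the 26% of all genes), and in cGAS-/- cells 5 passed each way (20.8%). Rapgef2, an exchange factor for Rap1, rose by 2.11 in WT and 2.19 in cGAS-/- cells, and the actin-binding Vasp rose by 1.13 (adjusted p = 0.0277) and 2.64. The alpha-actinin gene Actn1 fell (log2 fold change -2.04 in WT and -1.99 in cGAS-/- cells). Cytip, which binds cytohesin 1 and is known as a restraint on LFA-1 adhesion, was 4.39 to 4.80 TPM in the UT samples and at most 0.291 TPM in every LPS sample, so it passed the filter only through UT. Between the genotypes 0 of 24 passed in limma in either condition. Under TMM factors 2 passed as higher in cGAS-/- with LPS, Vasp (1.09, adjusted p = 0.0152) and Syk (0.98, adjusted p = 0.0311), which signals below integrins.

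Of 23 matrix and plasma ligands 21 were in the table and 12 were tested. In WT cells 2 passed as higher (16.7%) and 7 as lower (58.3%, of which 3 of 7 passed the filter only through UT), and in cGAS-/- cells 2 passed as higher (16.7%) and 3 as lower (25%). Thbs1 (thrombospondin 1) rose by 2.87 in WT and 3.19 in cGAS-/- cells, and Tgfbi, an integrin-binding matrix protein, by 2.04 and 1.77, the latter lost in 9 of 25 alternative settings. Spp1 (osteopontin) fell (log2 fold change -2.64 in WT and -3.19 in cGAS-/- cells), as did Mfge8, which bridges apoptotic cells to alpha V integrins (-2.44 and -2.11). In UT cells Col4a2, a basement membrane collagen chain, was 0.309 to 0.697 TPM in cGAS-/- and 1.88 to 2.13 TPM in WT. It reached 1 TPM in only 2 samples outside WT UT, so it was tested only through the group where it was high, and the call was lost with no filter (adjusted p = 0.087). With LPS 0 of 12 passed between the genotypes in limma, and under TMM factors Spp1 passed as lower (-1.25, adjusted p = 0.0295) and Emilin1 as higher (0.93, adjusted p = 0.0361) in cGAS-/-.

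Markers of other cells that carry these adhesion molecules moved with LPS in part. The 11 listed neutrophil markers of 14 summed to 157.6 to 234 TPM in WT UT, 117 to 508 TPM in WT LPS, 72.6 to 151 TPM in cGAS-/- UT and 419 to 467 TPM in cGAS-/- LPS, and 4 of them were below 1 TPM in all samples, among them Mpo, Elane and Prtn3. Of the sum in cGAS-/- LPS, Lcn2, which macrophages also make, held 347 to 377 TPM. The 10 dendritic cell markers of 11 summed to 20.6 to 23.2 TPM in WT UT, 8.36 to 15.8 TPM in WT LPS, 18.4 to 20.4 TPM in cGAS-/- UT and 11.1 to 11.9 TPM in cGAS-/- LPS, so the sum was lower with LPS, as Itgax was. Irf8, which macrophages also express, held most of these sums. Xcr1 went the other way, from 0.0267 to 0.173 TPM in WT UT to 0.842 to 2.14 TPM in WT LPS, and from at most 0.118 TPM in cGAS-/- UT to 0.419 to 0.869 TPM in cGAS-/- LPS, and Flt3 and Clec9a were at most 0.0751 TPM in every sample. The 13 endothelial and stromal markers of 15 summed to 11.7 to 14.8 TPM in WT UT, 6.004 to 22.1 TPM in WT LPS, 4.18 to 6.16 TPM in cGAS-/- UT and 3.93 to 4.89 TPM in cGAS-/- LPS. The 7 B cell markers of 11 summed to 2.47 to 5.00 TPM in WT UT, 3.19 to 4.55 TPM in WT LPS, 1.67 to 1.98 TPM in cGAS-/- UT and 0.411 to 1.45 TPM in cGAS-/- LPS. In UT cells the T and NK cell markers summed to 1.33 to 1.70 TPM in WT and 0.861 to 0.997 TPM in cGAS-/-. All 5 sums were thus lower in every cGAS-/- UT sample than in any WT UT sample, as Vcam1 and Selplg were. The neutrophil granule gene Ngp passed as lower there (log2 fold change -3.34, adjusted p = 0.00168). The part of these cells in the values of Itgal, Itgam, Itgax, Vcam1 and Selplg was not tested. In bulk RNA, fewer cells of a type and less RNA per cell cannot be told apart.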

How the data were processed

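RNA-seq of 12 BMDM samples was analysed. Per the labels, the authors used a strand-specific kit, fastp, STAR, Kallisto and the build GRCm39. The deposited values were taken as TPM averaged by the authors over the transcripts of a symbol, which is inferred from the values. Read numbers are unknown, so no counting error is given. Genes with at least 1 TPM in at least 3 of 12 samples, each rescaled to the median total for the filter only, were kept (9881). limma 3.58.1 in R 4.3.3 was fitted to log2(TPM + 1) with 1 mean per group over 12 samples and a variance trend, and p-values were adjusted by Benjamini-Hochberg over all 9881 genes. The study's methods name limma and a log2 fold change beyond 2.

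The members and the lists were chosen with earlier results of these data known. Named were all members, Cgas, Fth-ps3, at most 2 genes that passed each way per list and comparison, and the 3 genes most correlated with each member. Of the genes this rule names, 2 are not reported here. Replicate numbers did not pair the samples (same-number correlations -0.034 to 0.0454). Alternatives were other pseudocounts, filters, scalings, weights, subsets of samples and a replicate block. In a simulation with 9881 genes, of which 200 changed by 2 (log2), limma recovered 79.5% (LPS in WT), 72.5% (LPS in cGAS-/-), 74% (genotypes, UT) and 69% (genotypes, LPS), with 4.17% to 5.84% false among calls. When each group had its own spread, 72.1% (LPS in WT) and 72.2% (genotypes, LPS) of calls were false, against 3.27% and 2.58% in the comparisons without WT LPS, so calls that involve WT LPS are less certain. These shares do not carry over to the data as numbers. The simulation changed only 200 genes, where 30.8% of genes passed for LPS in WT. It also drew the noise of each gene separately, without shifts shared by a whole sample.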

Additional observations from a re-analysis of the deposited data

Results flagged for a closer look

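The interaction term (the LPS change in cGAS-/- minus that in WT) passed for 103 of 9881 genes, 81 with a higher and 22 with a lower value, and for 0 of the members. Among the list genes and Spn it passed for Col4a2 and Spn. Col4a2 was 1.88 to 2.13 TPM in WT UT, 0.0505 to 0.785 TPM in WT LPS, 0.309 to 0.697 TPM in cGAS-/- UT and 0.941 to 1.46 TPM in cGAS-/- LPS, a difference of LPS effects of 1.58 ± 0.320 (limma, adjusted p = 0.0458) that missed the threshold in 15 of 23 alternatives. It reached 1 TPM in WT UT and in only 2 other samples, so it was tested only through the group where it was high.

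Spn (CD43, the large sialomucin of leukocytes) is within 1000 kb of Itgal on chromosome 7 and was singled out after its values were seen. It was 1.77, 1.87 and 2.13 TPM in WT UT and 0.460, 0.593 and 0 TPM in WT LPS, and it was 0.604, 0.607 and 0.826 TPM in cGAS-/- UT and 3.07, 3.26 and 2.69 TPM in cGAS-/- LPS. LPS samples were all lower than UT samples in WT and all higher in cGAS-/- cells. It fell in WT (log2 fold change -1.14 ± 0.197, adjusted p = 0.00168) and rose in cGAS-/- cells (1.26 ± 0.197, adjusted p = 0.00115). The difference of the LPS effects was 2.39 ± 0.279 (limma, adjusted p = 0.00244), and it missed the threshold in 2 of 23 alternatives (adjusted p up to 0.0711). Spn reached 1 TPM only in WT UT and cGAS-/- LPS, the groups that add to this difference. It was thus tested only through groups where it was high, and the difference is given as a description.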

How the results depend on the processing

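The values rest on TPM of unknown depth and on WT LPS samples that spread widely. Icam1 and Itgal with LPS in cGAS-/- cells and Itgax with LPS in WT cells passed in 25 of 25 alternatives, and Itgal between the genotypes with LPS in 24 of 25 (2.24 to 3.42). For the list genes chosen by the naming rule and Spn, 908 values kept their direction and call and 111 kept the direction but missed the threshold. The cause of the changes below was not tested.

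The number of members passed for LPS in WT, 3 as reported, was 5 with quantile normalization, 1 in the 6 samples compared, 7 with sample weights, 1 past both thresholds, 5 under TMM factors without WT LPS replicate 3, and 2 to 8 with 1 sample left out, fits that called 17.2% to 54.7% of all genes (8 members and 39.9% without WT LPS replicate 3). Under TMM factors over all 12 samples Icam1, Itgal, Itgax and Itgam passed, with 22.3% of all genes called. The share of all genes called was 30.8% as reported. The quantile, 6-sample and weighted fits called 23.9%, 10.4% and 22.9%, and the TMM fit without WT LPS replicate 3 called 36%. For LPS in cGAS-/- cells, 5 as reported, it was 8 in the 6 samples compared, 8 with sample weights, 2 past both thresholds, 8 under TMM factors without WT LPS replicate 3, and 3 to 7 with 1 sample left out (10.1% to 36% of all genes), with 56.8%, 54.9% and 34.6% of all genes called in the 6-sample, weighted and TMM fits against 15.8% as reported. For the genotypes in UT cells, 0 as reported, it was 1 under TMM factors, 1 with quantile normalization, 5 in the 6 samples compared, 6 with sample weights, 3 under TMM factors without WT LPS replicate 3, and 0 to 2 with 1 sample left out (0.624% to 6.12%), with 1.75%, 2.29%, 13.9%, 14.4% and 7.49% of all genes called in those 5 fits against 1.83% as reported. For the genotypes with LPS, 1 as reported, it was 2 with quantile normalization, 0 in the 6 samples compared, 3 with sample weights, 5 under TMM factors without WT LPS replicate 3, and 1 to 6 with 1 sample left out (0.665% to 33.8%), with 6.03%, 0.331%, 3% and 16.8% of all genes called in those 4 fits against 2.59% as reported. For the difference of LPS effects, 0 as reported, it was 2 with sample weights, 2 under TMM factors without WT LPS replicate 3, and 0 to 4 with 1 sample left out (0.312% to 16.3%), with 3.01% and 7.98% of all genes called in those fits against 1.04% as reported. With the replicate number as a block the counts were 3, 5, 0, 1 and 0 in the same order, so the block changed none of them. The TMM fit without WT LPS replicate 3 and a filter on values rescaled to a larger common total were chosen after seeing the data, and the latter gave 3, 5, 0, 1 and 0.

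Signs turned as follows. For LPS in WT, Itga4 was 0.057 under TMM factors and 0.16 with quantile normalization. For the genotypes in UT cells, Itgam was 0.050 under TMM factors, 0.071 with quantile normalization and 0.050 under TMM factors without WT LPS replicate 3, and Itgb2 was 0.024, 0.032 and 0.024. For the genotypes with LPS, Itgax was -0.054 with quantile normalization, -0.049 with sample weights and -0.0075 under TMM factors without WT LPS replicate 3. Vcam1 was -0.25 with sample weights, -0.21 without WT LPS replicate 3 and -0.22 under TMM factors without it, and Selplg was 0.22 without WT LPS replicate 2. For the difference of LPS effects, Cd44 was -0.020 with quantile normalization, -0.15 without WT LPS replicate 3 and -0.20 under TMM factors without it, and Selplg was -0.21 and -0.28 in the latter pair of fits. With 1 sample left out, the genotype values with LPS ran from -0.21 to 0.83 for Vcam1 and from -0.89 to 0.22 for Selplg, and the difference of LPS effects from -0.15 to 0.79 for Cd44 and from -0.21 to 0.91 for Selplg. Vcam1 had no value under a filter of 5 TPM or in the fits of 6 samples for LPS in WT and for the genotypes in UT cells, and Itgax had none in the fit of the 6 LPS samples.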

Other observations

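Because Itgal differed between the genotypes, the genes annotated within 1000 kb of it were listed, a choice made after its values were seen. Of 214 annotated genes 89 were tested. Between the genotypes in UT cells, 0 passed as higher and 2 as lower in cGAS-/- (Kif22 and Sult1a1), and with LPS 1 was higher (Spn) and 0 were lower, where 1.83% and 2.59% of all genes passed, so these counts are near those shares. Their median log2 fold change was -0.087 in UT cells and 0.405 with LPS, beside -0.034 and 0.27 over all genes tested.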
